A study of Saccharomyces cerevisiae with 12 samples.

Results

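In the 3′ UTRs of Saccharomyces cerevisiae genes, 1554 single-nucleotide poly(A) positions were major, by the relative value defined below, in one mutant strain. They had no read at the same nucleotide in the other strain. The positions were chosen from 3′ READS profiles of an ubp8Δ and an rpb4Δ strain. A position lay more than 40 and less than 300 nt after the stop codon of an ORF whose 400-nt window held at least 20 RPM, which are reads normalised to library depth, in both strains. Its value, the percent of the reads at the highest position of that window, was 20 or more in one strain (a major position), and blank or 0 in the other. The window minimum was met by 3028 of 5798 ORFs. Of 11568 major positions in ubp8Δ, 1006 were blank in rpb4Δ, or 8.70%, and are called ubp8-only positions here. Of 11740 major positions in rpb4Δ, 548 were blank in ubp8Δ, or 4.67%, and are called rpb4-only positions. Positions were counted per ORF window, and with each genomic position taken once there were 1005 ubp8-only positions. Every missing value was a blank, so none was a listed 0. The measured values themselves chose these positions, and the counts are therefore a description without a test.

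The study asked how the speed of RNA polymerase II (Pol II) relates to pausing and to poly(A) site choice in the 3′ UTR. Both strains carried RPB3::RPB3-3xFLAG NAT, a tagged Pol II subunit with its drug marker, and were grown in YPD, a rich medium, to mid-log phase. The ubp8Δ strain carried in addition UBP8::HIS3 and the rpb4Δ strain RPB4::HIS3, so that HIS3 was also present in both. Each strain was sequenced in 2 biological replicates that were pooled into 1 profile, so no value below has a replicate error and no difference between the strains was tested. No profile of a strain with both UBP8 and RPB4 intact was analysed here, and a position blank in one mutant cannot be assigned to either deletion.

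The 3′ end of a yeast mRNA forms when the cleavage and polyadenylation machinery cuts the nascent transcript downstream of the stop codon and poly(A) polymerase adds a tail. AU-rich efficiency elements such as UAUAUA and A-rich positioning elements such as AAUAAA lie upstream of the cut, and one gene commonly has many sites, often in clusters a few nucleotides wide. Ubp8, a subunit of the transcription coactivator SAGA, removes ubiquitin from histone H2B. Rpb4 forms with Rpb7 a stalk on Pol II that takes part in transcription and in steps of mRNA metabolism. A 3′ READS read is assigned to the last nucleotide other than A ahead of the tail, because As encoded at the cut cannot be told from the tail.

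A set of 10 positions is shown with the genome around them, because these had, in each direction, the most reads expected in the library that lacked them. Each line gives 30 nt of the gene's strand, 5′ to 3′, from the SacCer3 (R64) genome, and the capital is the base of the blank position. The ubp8-only positions were in SKT5 (chrII:105211-105240, minus strand), CIR1 (chrVII:910666-910695, minus), URA8 (chrX:622531-622560, plus), YPT31 (chrV:213770-213799, minus) and YOR338W (chrXV:958035-958064, plus).
SKT5: ttacaatggctatatcccctTattgatgaa
CIR1: aacaattcccggtggtttttTactcagata
URA8: aagtatattatcattaacatTagttggtta
YPT31: taattcttctgcagtcttttTatagtcaat
YOR338W: aaacgagcaaatttgataagTacggaatat
The rpb4-only positions were in HTA2 (chrII:235131-235160, minus), AIM9 (chrV:321947-321976, plus), YMR102C (chrXIII:469734-469763, minus), FES1 (chrII:443536-443565, minus) and YTA6 (chrXVI:418140-418169, plus).
HTA2: attttttattcattagtataCatgttataa
AIM9: atggaatctcttccatttacTaatcaactt
YMR102C: ttaaataaattttaatctaaTaattaatga
FES1: gtacaagtaaacagtttgtaCaatcttttt
YTA6: gaaaaactaacttcggttccCttatgattt
Only the YTA6 position among these was followed by a base other than A.

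The libraries differed in depth. One read was worth 0.0614 RPM in ubp8Δ and 0.395 RPM in rpb4Δ, and the windows of all ORFs held 13034498 and 1977159 reads. Across the ORFs that met the minimum, a window held a median of 1444 reads in ubp8Δ and 243 in rpb4Δ, with a lowest of 326 and 51. The deleted genes matched their labels, as the UBP8 ORF had 0 reads in ubp8Δ and 12 in rpb4Δ, and the RPB4 ORF had 244 reads in ubp8Δ and 0 in rpb4Δ. For each position, the reads expected in the other library are its share of the window's reads times the window reads of that library. It can be too high, because the same reads chose the position.

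The ubp8-only positions held a median of 43 reads (range 9 to 467) in ubp8Δ. Their median value was 29.1%, and their median share of the window was 6.26%. In rpb4Δ a median of 6.81 reads (range 1.23 to 43.4) would have been expected at the same share, and 279 of the 1006 positions, or 27.7%, had 10 or more expected reads. The rpb4-only positions were seen with fewer reads and missed in deeper windows. They held a median of 8 reads (range 2 to 52) in rpb4Δ, again with a median value of 29.1% and a median share of 7.04%. In ubp8Δ a median of 50.5 reads (range 11.6 to 625) would have been expected there, so that every rpb4-only position had more than 10 expected reads. Of the 548, however, 518 (94.5%) were themselves drawn from fewer than 20 reads. The ubp8-only positions were thus thin in the library that missed them, and the rpb4-only positions in the library that showed them.

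The share of blank positions fell with depth in both directions. In ubp8Δ 47.9% of the 618 major positions with 2 to 5 expected reads were blank in rpb4Δ, against 27.7% with 5 to 10, 10.9% with 10 to 20, and 1.39% (41 of 2941) with 20 to 50. With 50 or more expected reads, 0 of 4302 were blank. In rpb4Δ the share followed the reads at the position itself, from 20.7% of those with fewer than 10 reads to 7.76% with 10 to 20 and 0.906% with 20 to 50. Above 50 reads, 1 of 4489 major positions of rpb4Δ was blank in ubp8Δ. No major position with 50 or more reads in the shallower library, counted or expected, was therefore missing from the other strain, apart from that single site. By the reads expected in ubp8Δ, the deeper library, 277 of 10517 rpb4Δ major positions with 50 or more were still blank, or 2.63%. With 100 or more expected, 76 of 8383 were blank. Strong sites within a window were also missed less often, as the blank share fell from 19.4% at a value of 20 to 25% to 0.745% (21 of 2818) at the highest position of the window in ubp8Δ. The corresponding shares in rpb4Δ were 10.8% and 0.560% (16 of 2859). The part of depth in the blank positions was not tested.

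**Figure D1:**
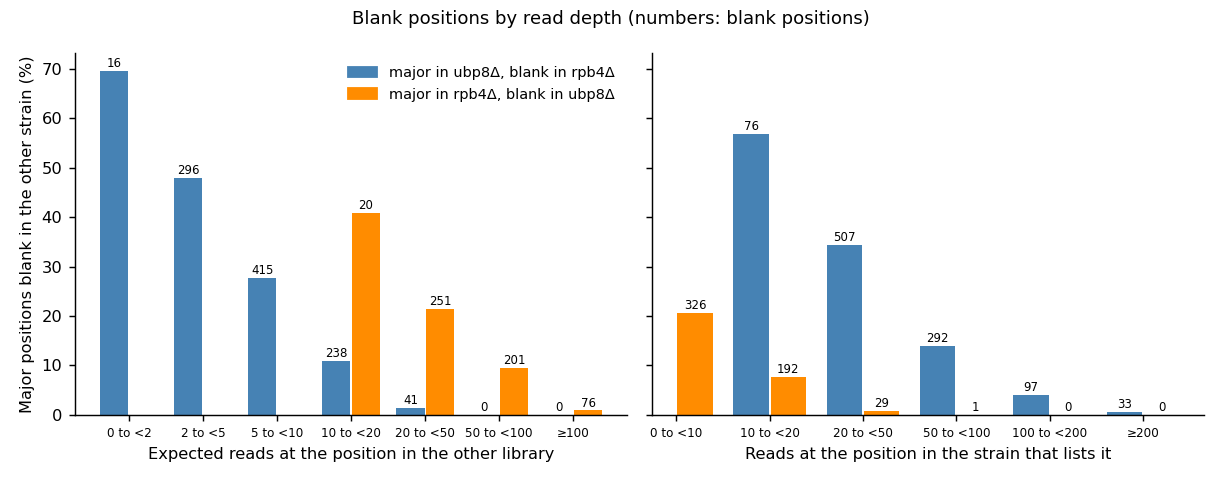
Percent of major positions (y axis) that were blank in the other strain, by the reads expected in the other library (left) and by the reads at the position (right). Blue bars are major positions of ubp8Δ and orange bars those of rpb4Δ, the number over a bar counts the blank positions, and bins with fewer than 20 major positions are left out. The blue share drops from 47.9% at 2 to 5 expected reads to 0 above 50, and the orange share from 20.7% under 10 reads to 0.906% at 20 to 50 reads.

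Near the threshold, MSN1, which encodes a transcription factor, had ubp8-only positions at 90 and 265 nt with a value of exactly 20%, each from 21 of 638 reads. Just outside stood position 233 of ARO8, an aromatic aminotransferase gene, and position 259 of ASK10, both at 19.98% in ubp8Δ and blank in rpb4Δ. In the other direction RLF2, for the largest subunit of chromatin assembly factor 1, and PRE4, for a proteasome subunit, had a value of 20% at 122 and 157 nt, from 13 reads each. RBK1, the ribokinase gene, stood just outside with 19.99% at 57 nt, and SHE3, for an adaptor of mRNA transport, with 19.98% at 187 nt.

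Most blank positions had a listed position of the other strain within 10 nt. Windows held a median of 24 listed positions in ubp8Δ and 16 in rpb4Δ, and the distance from any other nucleotide was not computed. Of the ubp8-only positions, 753 (74.9%) had a listed rpb4Δ position within 10 nt, 565 (56.2%) within 5 nt and 117 (11.6%) at the adjoining nucleotide. The median distance to the nearest listed position was 4 nt and the greatest 267 nt. Of the rpb4-only positions, 465 (84.9%) had a listed ubp8Δ position within 10 nt, 381 (69.5%) within 5 nt and 95 (17.3%) at the adjoining nucleotide, with a median distance of 3 nt and a maximum of 248 nt. A major position of the other strain lay within 10 nt of 49.9% of the ubp8-only and 51.6% of the rpb4-only positions. Among major positions listed in both strains, counting the nucleotide itself, these shares were 91.0% and 89.8%. That nucleotide was itself major in the other strain at 76.9 and 72.6% of them, so these shares are not a like reference. Positions beside a major site of the other strain and positions away from one were thus about equally common in both sets.

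**Figure D2:**
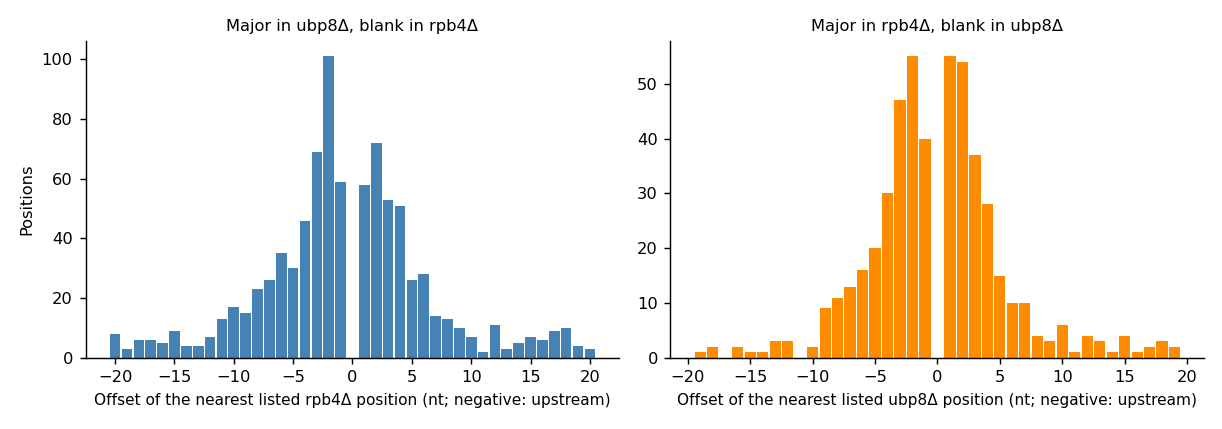
Number of positions (y axis) by the offset in nt of the nearest listed position in the other strain (x axis, negative upstream, ties counted as upstream, offsets beyond 20 nt not drawn), for ubp8-only (left) and rpb4-only positions (right). The counts peak within 3 nt on either side; at an offset of -2 nt there are 101 ubp8-only and 55 rpb4-only positions.

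The neighbourhood in the other strain carried some of the reads, but often less. The 21 nt centred on an ubp8-only position held a median of 18.6% of the window reads in ubp8Δ and 7.39% in rpb4Δ. Part of that gap follows from the rule, since the position itself counts only in its own strain. Without the position the median in ubp8Δ was 11.4%, and the share in rpb4Δ exceeded this remainder at 365 of the 1006 positions (36.3%). The same held at 86.3% of ubp8Δ major positions listed in both strains, where the nucleotide itself counts in rpb4Δ. Around rpb4-only positions the medians were 18.9% in rpb4Δ, 9.67% in rpb4Δ without the position, and 7.92% in ubp8Δ. In 253 cases (25.1%) rpb4Δ had no read within 10 nt of an ubp8-only position, and in 83 cases (15.1%) ubp8Δ had none around an rpb4-only position. At the other end, 293 ubp8-only (29.1%) and 183 rpb4-only positions (33.4%) lay in zones whose share in the other strain was within a factor of 1.5 of their own. Among major positions listed in both strains, whose nucleotide itself counts in both, this was 72.7 and 71.7%. Within the middle range of reads of each set it was 29.8% of blank against 54.8% of shared positions in ubp8Δ. In rpb4Δ it was 33.1 against 52.4%. Median expected reads were still lower for the blank than for the shared positions within these ranges. The sets therefore hold both single nucleotides missing from a shared cluster and whole stretches without a read in the other strain.

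**Figure D3:**
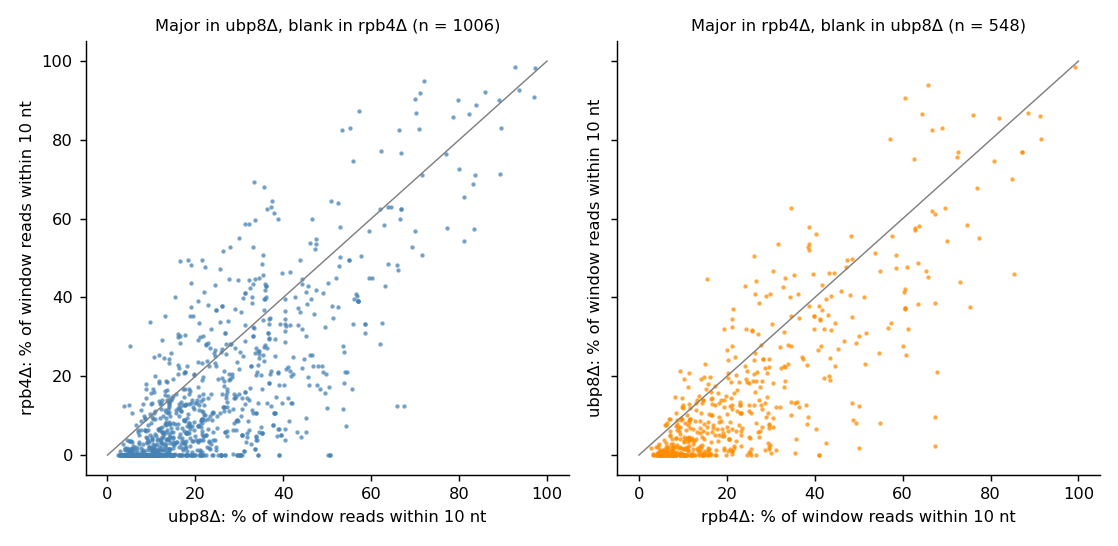
Percent of the window reads within 10 nt of each position in the strain that listed it (x axis) and in the strain that lacked it (y axis), 1 point per position, for 1006 ubp8-only (left) and 548 rpb4-only positions (right). The grey line marks equal shares; points on the x axis are the 253 and 83 positions without a read within 10 nt in the other strain.

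Among the ubp8-only positions, that of SKT5, an activator of chitin synthase in the cell wall, had the most expected reads. At 96 nt (chrII:105220, inside KIP1 on the opposite strand) it was the highest position of its window in ubp8Δ, with 100 of 429 reads or 23.3% (95% Wilson interval 19.6 to 27.5%). In rpb4Δ it had 0 of 186 reads, where 43.4 were expected and 0 reads allow a share of up to 1.61% (3 reads of the window). Such intervals and limits cover counting error only, as no molecular identifiers are described for these reads. They also do not allow for the choice of the positions by these same reads, and so describe the counts without testing a difference. The highest rpb4Δ position of SKT5 was at 68 nt, with 45 reads or 24.2%, and ubp8Δ had 86 reads there. The 21 nt around position 96 still held 26 reads (14.0%) in rpb4Δ, against 32.2% in ubp8Δ.

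CIR1, a mitochondrial protein gene related to electron transfer flavoproteins, had a whole zone of ubp8Δ reads that was empty in the rpb4Δ profile. At 168 nt it had 156 of 948 reads in ubp8Δ (16.5%, interval 14.2 to 19.0%) and 0 of 233 in rpb4Δ, where 0 reads allow up to 1.29%. Within 10 nt ubp8Δ had 279 reads (29.4%) and rpb4Δ 0, with the nearest listed rpb4Δ position 22 nt upstream. Both strains had their highest position at 110 nt, which took 25.1% of the ubp8Δ and 35.6% of the rpb4Δ reads. The upstream cluster of CIR1 was thus present in both profiles and the downstream cluster in ubp8Δ alone.

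The other 8 ubp8-only positions with the most expected reads (30.1 to 36.4) ranged from zones that were nearly empty in rpb4Δ to clusters that were well used. ITR1, a myo-inositol transporter gene, had 401 of 1401 reads (28.6%) within 10 nt of position 46 in ubp8Δ and 1 of 336 (0.298%) in rpb4Δ. SIT1, a siderophore transporter gene, had 185 of 1711 reads (10.8%) around position 210 in ubp8Δ and 4 of 658 (0.608%) in rpb4Δ. YPT31, for a Rab GTPase of the Golgi, had 154 of 1420 (10.8%) around position 297 against 5 of 378 (1.32%), and YOR338W 45 of 406 (11.1%) around position 66 against 2 of 318 (0.629%). These 4 zones were thus nearly empty in rpb4Δ, although ITR1, SIT1 and YPT31 had the same highest position in both strains.

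Zones with a larger share of the rpb4Δ reads filled the rest of this group. RPS1A, a small-subunit ribosomal protein gene, had 207 of 3271 reads at position 263 itself in ubp8Δ, and its zone held 29.3% there and 8.63% (41 of 475 reads) in rpb4Δ. BMT2, for an rRNA methyltransferase, had 75 of 670 reads at 168 nt and 19.7% against 8.30% in the zone. URA8, a CTP synthase gene, had 269 of 812 reads at 61 nt, with a value of 98.92%, in a cluster that held 83.5% of the ubp8Δ and 57.3% of the rpb4Δ reads. NUP57, a nuclear pore gene, had 89 of 399 reads at 142 nt, and both strains had their highest position 5 nt upstream. The nucleotide was blank in these 4 genes, while both strains had reads within 10 nt of it. In RPS1A all 41 rpb4Δ reads of the zone lay at 1 nucleotide, 4 nt downstream.

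HTA2, which encodes histone H2A, held the rpb4-only position with the most expected reads. At 254 nt (chrII:235140, between annotated genes) it had 20 of 86 reads in rpb4Δ, or 23.3% (interval 15.6 to 33.2%), and was the highest position. In ubp8Δ it had 0 of 2687 reads, where 625 were expected and 0 reads allow up to 0.112%. Within 10 nt ubp8Δ had 134 reads (4.99%), 9 of them at the position 2 nt upstream. HTA2 reads were spread over many positions in ubp8Δ, with 9.42% at the highest, at 290 nt. The same window held 10 ubp8-only positions, from 73 to 297 nt, with 39.0% of its ubp8Δ reads.

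AIM9, a gene for a mitochondrial protein, had 21 of 71 reads at 121 nt in rpb4Δ (29.6%) and 0 of 1723 in ubp8Δ, where 510 were expected. Within 10 nt ubp8Δ had 34 reads (1.97%), and its highest position was at 80 nt with 29.1%. YOL057W was similar, with 22 of 216 rpb4Δ reads at 113 nt and 3 of 2329 ubp8Δ reads (0.129%) within 10 nt. In both genes all rpb4Δ reads of the zone were at the 1 nucleotide, as the share of the zone equalled that of the position (29.6% and 10.2%).

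The same concentration on 1 nucleotide was seen in 4 more of the 10 positions. FES1, for a nucleotide exchange factor of Hsp70, had 22 of 198 rpb4Δ reads at 276 nt and 88 of 2646 ubp8Δ reads (3.33%) in the zone. YMR102C had 9 of 54 reads at 105 nt in rpb4Δ and 328 of 2527 (13.0%) in the ubp8Δ zone. RPB3 at 288 nt, whose locus carries the tag in both strains, and HTA2 were the other genes of this kind. In YTA6, an AAA ATPase gene, the position at 133 nt (16 of 109 reads) lay instead in a cluster with 99.1% of the rpb4Δ and 98.6% of the ubp8Δ reads, and ubp8Δ had 207 reads 1 nt upstream. ICY1 at 105 nt, MRPL49 (a mitochondrial ribosomal protein gene) at 53 nt and OCA2 at 99 nt were the highest positions of their windows in rpb4Δ, with 20 of 55, 18 of 74 and 12 of 88 reads. The zone of ICY1 held 33 of its 55 rpb4Δ reads and 27.8% of its ubp8Δ reads. Those of MRPL49 and OCA2 held 60.8 and 40.9% in rpb4Δ against 25.3 and 37.9% in ubp8Δ.

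**Figure D4:**
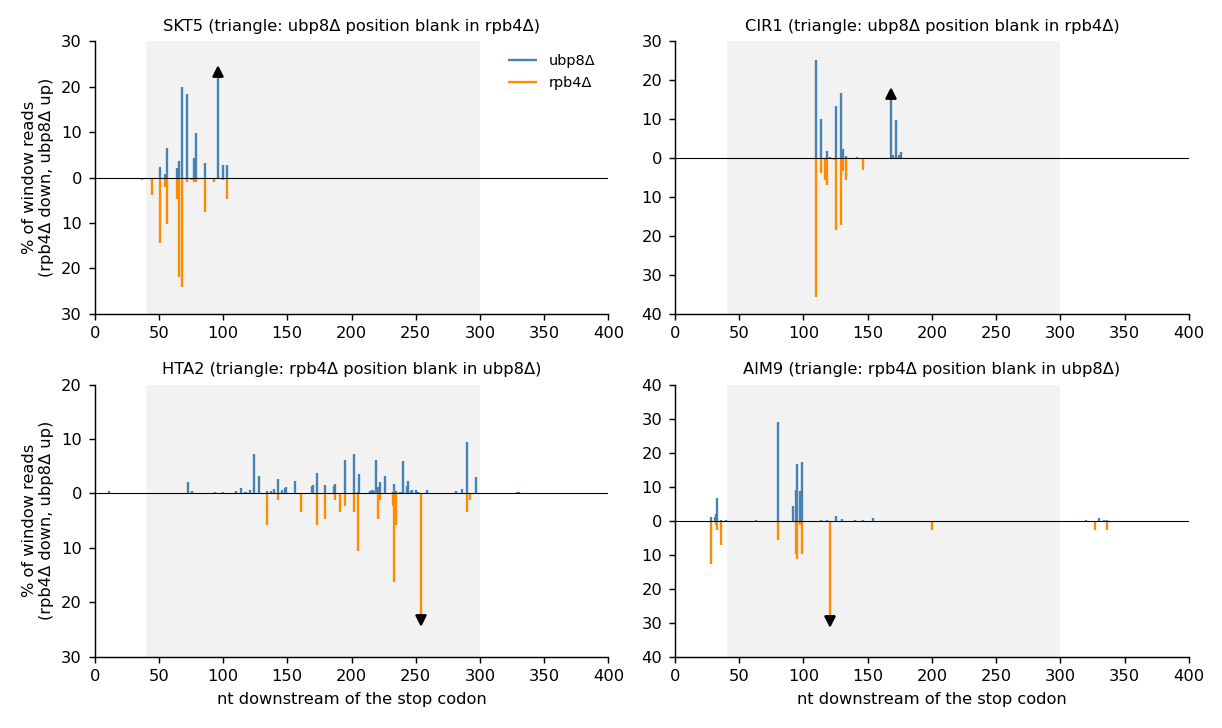
Percent of the window reads (y axis, ubp8Δ upward in blue, rpb4Δ downward in orange) at each nucleotide downstream of the stop codon (x axis) in SKT5, CIR1, HTA2 and AIM9; the shaded stretch is the range searched, 41 nt to less than 300 nt, and a triangle marks the blank position with the most expected reads. SKT5 and CIR1 have a tall ubp8Δ line (23.3 and 16.5%) with nothing opposite, and HTA2 and AIM9 a tall rpb4Δ line (23.3 and 29.6%) with nothing opposite.

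The highest position of a window was blank in the other strain in 21 ubp8Δ and 16 rpb4Δ cases. With the deepest windows in rpb4Δ, those of ubp8Δ included NUP192, a nuclear pore gene, with 297 of 2057 reads (14.4%) at 212 nt and 0 of 187 in rpb4Δ, whose highest position was at 358 nt. BRL1, for a nuclear envelope protein, had 136 of 853 reads at 221 nt, while rpb4Δ had 4 reads at the nucleotide before it and 50.4% of its reads in the zone, against 52.9% in ubp8Δ. NUP192 had 3.21% of its rpb4Δ reads in the zone against 15.5% in ubp8Δ, so that the share of the zone was lower in rpb4Δ in NUP192 and nearly equal in BRL1. HTA2, AIM9 and OCA2 had the deepest ubp8Δ windows among the rpb4-only cases.

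The positions gathered in some genes. The 1006 ubp8-only positions lay in 545 ORFs (18.0% of those that met the minimum), of which 314 held 1 position and 26 held 5 or more. The 548 rpb4-only positions lay in 404 ORFs (13.3%), of which 297 held 1 and 3 held 5 or more. In 199 ORFs positions of both kinds occurred, and in 56 of these opposite positions stood within 10 nt of each other. ORFs with an ubp8-only position had median window totals of 692 reads in ubp8Δ and 110 in rpb4Δ, those with an rpb4-only position 684 and 109, and those with neither 1969 and 333. Genes with blank positions thus had fewer reads than the others in both strains.

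The 3 ORFs with the most ubp8-only positions all had long, broken-up site arrays and fewer than 100 reads in rpb4Δ. RPO21, for the largest subunit of Pol II, had 14 between 53 and 250 nt, with 65.4% of its 633 ubp8Δ reads, and 65 reads in rpb4Δ. Its highest ubp8Δ position, at 221 nt with 56 reads, was 60 nt from any rpb4Δ read, whose highest position was at 104 nt. ATP19, for a subunit of the mitochondrial ATP synthase, had 12 between 115 and 240 nt with 69.9% of 379 reads against 60 reads in rpb4Δ. Both strains peaked at 130 nt, and 11 of the 12, from 175 nt on, had no rpb4Δ read within 10 nt. YSF3, for a spliceosome subunit, had 11 between 50 and 284 nt with 47.5% of 442 reads against 93 in rpb4Δ. In these genes at most 9.05 reads would have been expected in rpb4Δ at any 1 of the positions.

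Among the ORFs with the most rpb4-only positions, URE2, the regulator of nitrogen catabolite repression, had 6 between 122 and 235 nt with 32.1% of 196 rpb4Δ reads, and 689 reads in ubp8Δ. Its positions at 122, 125 and 127 nt shared a zone that held 20.4% of the rpb4Δ reads and 4.06% of the ubp8Δ reads, and the latter were 28 reads at 1 nucleotide. VPS4, for an ATPase of endosomal sorting, had 5 with 28.4% of 95 reads against 481 in ubp8Δ. PKH3, a protein kinase gene, had 5 with 28.6% of 161 reads against 375, and its highest rpb4Δ position, at 250 nt with 21 reads, had 5 ubp8Δ reads in its zone. In URE2 and VPS4 the highest position was the same in both strains (225 and 221 nt).

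Some positions stood far from any read of the other strain. In 36 ubp8-only and 16 rpb4-only cases no listed position of the other strain lay within 50 nt. The following examples were chosen after their values had been seen. ORC6, for a subunit of the origin recognition complex, had its highest ubp8Δ position at 283 nt with 78 of 330 reads (23.6%, interval 19.4 to 28.5%), while rpb4Δ had 0 of 53 there and its nearest read 180 nt away. In SAC6, the gene of the actin-bundling protein fimbrin, 221 of 2139 reads at 278 nt met 0 of 147 in rpb4Δ, with the nearest 116 nt away. In CIT2, which encodes the peroxisomal citrate synthase, 21 of 397 reads at 278 nt met 0 of 357, where 0 reads allow up to 0.840%. GCD11, for a subunit of translation initiation factor eIF2, had 13 and 12 of 61 rpb4Δ reads at 163 and 162 nt and 0 of 544 in ubp8Δ, with the nearest read 74 nt from the first. CHD1, a chromatin remodeller gene, had 11 of 156 rpb4Δ reads at 226 nt and 0 of 1633 in ubp8Δ, with the nearest read 92 nt away.

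The positions lay further downstream than shared sites. Their median was 147 nt for ubp8-only and 146 nt for rpb4-only positions, against 118 and 119 nt for major positions listed in both strains. The blank share of ubp8Δ major positions rose from 6.48% before 100 nt to 17.6% from 250 nt on, and that of rpb4Δ from 3.31% to 9.69%. Among ubp8Δ positions with 5 to 20 expected reads the share went from 15.4 to 28.3% between the same ranges, and among rpb4Δ positions with 20 to 100 expected reads from 10.5 to 22.5%. The gradient was also present within these ranges, but depth was not constant inside them. The blank share fell from 27.7% at 5 to 10 expected reads to 10.9% at 10 to 20 in ubp8Δ. In rpb4Δ it fell from 21.4% at 20 to 50 to 9.42% at 50 to 100. The part of depth in the gradient was not tested.

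The base composition at the positions was read from the genome, which the rule did not use. The position itself was a T in 43.1% of ubp8-only and 43.4% of rpb4-only cases, close to the 44.5 and 43.5% of shared major positions, and never an A, as the placement of sites requires. The next base was an A at 73.1% of ubp8-only and 65.5% of rpb4-only positions. It was an A at 86.3 and 85.7% of shared major positions, and at 30.4% of all non-adenine nucleotides in the same range of these windows. Since blank positions have fewer reads, the comparison was repeated among positions within the middle range of reads of each set. The shares were then 71.8% of 510 ubp8-only against 81.3% of 1543 shared positions, and 63.9% of 341 rpb4-only against 80.7% of 1659. This range did not equalise depth. Median expected reads were 7.19 for ubp8-only against 9.76 for shared positions, and 50.2 for rpb4-only against 64.3. Next to an A, 16.0% of ubp8Δ major positions with 5 to 20 expected reads were blank in rpb4Δ, and next to another base 25.5%. For rpb4Δ with 20 to 100 expected reads these shares were 11.2 and 23.2%. Depth was not constant inside these ranges either, and its part in the difference was not tested.

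Efficiency elements were fewer upstream of the blank positions. The 60 nt upstream were searched on the gene's strand for TATATA, which equals its own reverse complement, and for TACATA and TATGTA, which are reverse complements of each other. Matches may overlap, and a match is a description of letters only. At least 1 of these 3 elements was found upstream of 32.6% of ubp8-only and 37.4% of rpb4-only positions, against 48.3 and 48.9% of shared major positions and 23.9% of all non-adenine nucleotides. Within the middle range of reads the shares were 32.5 against 46.4% in ubp8Δ, and 35.5 against 42.5% in rpb4Δ. Expected reads still differed within that range, and the part of depth was not tested. TATATA alone was found at 18.8 and 21.4% of blank, 29.1 and 29.6% of shared and 14.2% of all non-adenine positions. The positioning element AATAAA, also searched on the gene's strand alone, was found at 9.15% of ubp8-only against 12.1% of shared positions, and at 66 of 548 rpb4-only against 1344 of 11192 shared positions, beside 8.86% of all non-adenine nucleotides. The blank positions lay between the shared sites and the background in the adenine that follows and in the efficiency elements.

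**Figure D5:**
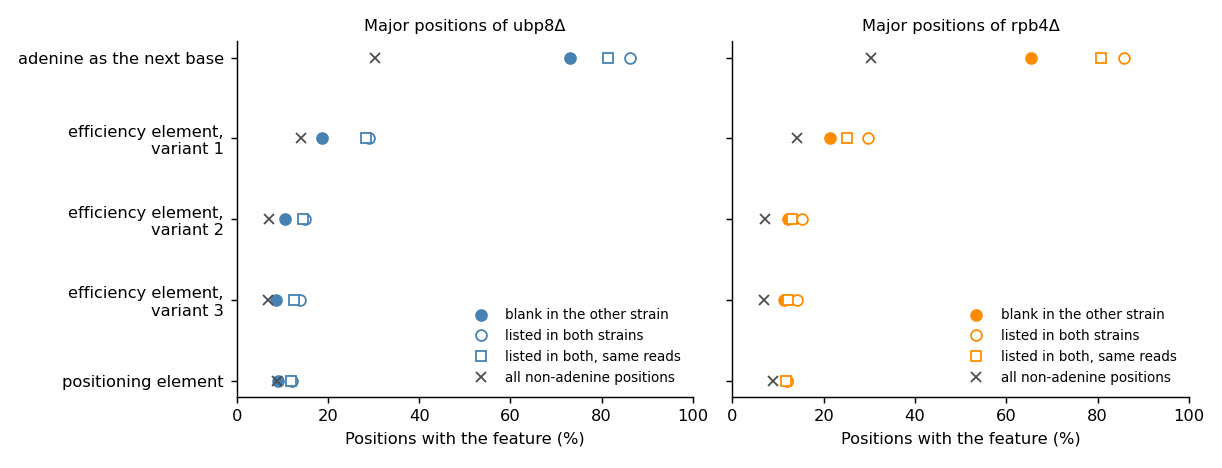
Percent of positions (x axis) with an adenine as the next base and with each element in the 60 nt upstream (y axis; efficiency element variants 1 to 3 are TATATA, then TACATA and then TATGTA, and the positioning element is AATAAA), for major positions of ubp8Δ (left) and rpb4Δ (right). Filled circles are blank positions, open circles those listed in both strains, squares those in both with the same range of reads, and crosses all non-adenine positions; for the next base, the filled circles (73.1 and 65.5%) lie left of the open circles (86.3 and 85.7%).

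In the annotation, 811 ubp8-only (80.6%) and 463 rpb4-only positions (84.5%) lay between annotated genes, against 87.2 and 87.4% of shared major positions. Inside a gene on the opposite strand lay 17.8 and 14.1%, against 11.7 and 11.5% of the shared. Inside a gene on the same strand lay 16 ubp8-only and 8 rpb4-only positions, where reads could belong to the neighbouring transcript. Position 221 of BRL1, inside PUT2, was one of these.

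Ribosomal protein genes had few blank positions and deep windows. Of the major positions of 132 such genes, 8 of 476 in ubp8Δ (1.68%) and 8 of 483 in rpb4Δ (1.66%) were blank in the other strain, and the median window in the library that could lack them held 913 reads in rpb4Δ and 5677 in ubp8Δ. In 47 mitochondrial ribosomal protein genes the shares were 7.10 and 2.86%, and in 244 ORFs without a standard name 8.39 and 6.08%, beside 8.70 and 4.67% over all ORFs that met the minimum.

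Of 22 cleavage and polyadenylation genes, 14 met the minimum. They held 9 ubp8-only positions among 68 major positions (13.2%) and 2 rpb4-only among 56 (3.57%), in 4 genes. Over all ORFs that met the minimum the shares were 8.70 and 4.67%. The median rpb4Δ window held 150 reads in these genes against 243 over all, and 6 of the 9 positions were in 1 gene. PTI1, a component of the cleavage and polyadenylation factor (CPF), had 6 ubp8-only positions from 98 to 293 nt, with 17 to 33 of 634 reads each and 160 reads in rpb4Δ. Their zones ranged from no rpb4Δ read, at 279 and 293 nt, to 24.4% of the rpb4Δ reads at 180 nt, against 44.6% in ubp8Δ. YTH1, an RNA-binding CPF subunit, had 228 of 1707 reads at 160 nt and 147 at 137 nt in ubp8Δ, with 0 of 138 in rpb4Δ at either. The zones around them still held 27.5 and 12.3% of the rpb4Δ reads, against 35.6 and 16.5% in ubp8Δ. The single rpb4-only position of YTH1, at 73 nt, had 5 of 138 reads. RNA14, a subunit of cleavage factor IA, had an ubp8-only position at 74 nt (62 of 1513 reads, no read of 177 within 10 nt in rpb4Δ). CLP1, of the same factor, had an rpb4-only position at 54 nt with 13 of 160 reads, and ubp8Δ had 23 reads at the nucleotide before it.

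The genes altered in the strains held 8 positions. RPB3, tagged in both, had 467 of 1533 ubp8Δ reads (30.5%, interval 28.2 to 32.8%) at 258 nt, the ubp8-only position with the most reads of all, and 0 of 65 in rpb4Δ. At 271 nt it had 243 reads against 0. The zone around 258 nt still held 17 rpb4Δ reads (26.2%), against 53.9% in ubp8Δ. At 288 nt rpb4Δ had 10 of 65 reads (15.4%) and ubp8Δ 0 of 1533, so that blank nucleotides of both kinds stood within 30 nt. The tag and its marker modify this locus in both strains, while positions are counted on the reference genome. Reads there cannot be assigned to an unmodified RPB3 3′ UTR.

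In RPB4, whose ORF is replaced by HIS3 in rpb4Δ, the window downstream of the stop codon still had 76 reads in rpb4Δ, against 2761 in ubp8Δ. There were 4 rpb4-only positions in it, at 41, 45, 46 and 150 nt, with 4 or 5 reads each. The ubp8-only position at 47 nt had 211 ubp8Δ reads, directly beside the rpb4Δ reads at 46 nt. The highest position was at 50 nt in ubp8Δ, 1 nt beyond that of rpb4Δ at 49 nt, and the zone around 47 nt held 37.4 and 64.5% of the reads. UBP8 did not meet the minimum, with 9.20 RPM in its ubp8Δ window, and HIS3 held no blank major position. Reads downstream of RPB4 in rpb4Δ come from the modified locus, and transcripts of the inserted marker cannot be told apart from others there.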

How the data were processed

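3′ READS profiles of ubp8Δ and rpb4Δ were analysed, each made by the authors from 2 pooled biological replicates. NET-seq data were not used here. Leading Ts were removed from the reads by the authors, the following 17 bases had to align to 1 place in the genome without mismatch, and only reads with untemplated As were retained. The submitters' processing notes name Bowtie, TopHat2, cutadapt and sacCer3, whose versions are not given in the sources used here. Of these tools, the paper describes Bowtie for 3′ READS, and TopHat2 and cutadapt for NET-seq. At each position the deposited value is a percent, relative to the highest position of that feature, and the deposited window, highest-position and ORF totals are in RPM. A position without reads is an empty cell, and lines of features without reads stop early; both were read as blank.

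Whole reads were recovered from the RPM step of 1 read. All 720 low highest-position values of ubp8Δ and all 2345 of rpb4Δ lay within 0.1 of a read of a whole multiple. A count test was not run, because each strain has 1 pooled profile. For the same reason there is no test between strains, and intervals are 95% Wilson intervals of read shares. The limit of a count of 0 is 3 reads of the window. Windows held 326 or more reads in ubp8Δ and 51 or more in rpb4Δ, so a blank allows a share of up to 5.88% in the shallowest rpb4Δ window.

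Bases and genes were read from the RefSeq R64 genome and annotation, where 3027 of the ORFs were found by name and 3023 of these had matching ends. Analyses used Python 3.11.15, numpy 2.4.6, scipy 1.17.1 and matplotlib 3.10.9. The search for blank positions and the estimate of the RPM step were tested on simulated data, and the other functions were not. The members and lists were chosen with earlier results of these data known. Named in each direction were the 10 ORFs with the most expected reads in the lacking library, the 3 with the most positions, the 3 deepest with a blank highest position, the 2 positions just inside and the 2 just outside the threshold, and strain and cleavage genes with a position. Alternatives varied the thresholds, the tolerance, the depth, the next base and the gene set.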

Additional observations from a re-analysis of the deposited data

Results flagged for a closer look

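Features other than ORFs were outside the comparisons. By the same rule, 18 of them met the minimum in both strains. There, 48 of 150 major positions of ubp8Δ (32.0%) were blank in rpb4Δ, and 29 of 132 of rpb4Δ (22.0%) were blank in ubp8Δ. Over all ORFs that met the minimum these shares were 8.70 and 4.67%. The read depth of the 18 features was not compared with that of the ORFs, and the part of depth was not tested. These features were singled out because the comparisons above did not use them. No profile without either deletion was at hand to compare them with.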

How the results depend on the processing

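The counts followed the thresholds. The 1006 ubp8-only and 548 rpb4-only positions became 2790 and 1483 with a value of 10% or more, 172 and 79 with 50% or more, and 21 and 16 with 100%. A window minimum of 100 RPM left 21 and 11, one of 20 reads gave 2820 and 1632, and no minimum 4824 and 2679. Requiring a blank out to 5 nt left 441 and 167, and to 10 nt 253 and 83. With 10 or more expected reads 279 ubp8-only positions remained, and with 10 or more reads at the position 222 rpb4-only positions. Positions not followed by an A numbered 271 and 189, and those with 10% or more of the window reads 200 and 146. Each count stayed within 1.5 times the first under the other 5 of 16 alternatives. Median distances of 4 and 3 nt became 11 and 10 nt to the nearest major position. They were 2 nt in both directions where the next base was not an A. With 10 or more expected reads the ubp8-only median stayed at 4 nt. That setting kept all 548 rpb4-only positions, so their median could not move. No paired analysis was possible because the replicates are pooled in the deposited profiles, and no replicate could be left out.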
